A study of Mus musculus with 4 samples.

Results

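The comparison described here is between bone marrow-derived dendritic cells (BMDC) that had been cultured with live tumour cells and BMDC that had been cultured with irradiated tumour cells, 2 of the 4 samples of the series. It was chosen by those labels and not by a measured value. In all 4 samples, bone marrow of male C57BL/6 mice aged 6 to 8 weeks was grown for 7 days with 500 U/ml GM-CSF, the growth factor that drives myeloid progenitors towards dendritic cells and macrophages. The live coculture then received 1D8 cells, an epithelial line of the mouse ovarian surface that the labels call tumour, at 1 tumour cell to 5 BMDC, and the irradiated coculture received 1D8 cells that had been given 50 Gy, at that ratio. The control BMDC received no 1D8 cells, and in the conditioned medium sample 25% of the volume was 1D8 supernatant. Cells of every sample were stained for CD80, a costimulatory surface protein, and sorted before RNA was extracted. Each condition is 1 biological sample on 1 Affymetrix array, so no value below has an error from replicates and no test was run. The words higher and lower describe these arrays only. The length of the coculture and the number of mice pooled are not given in the sources used here.

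Ionising radiation breaks DNA and stops tumour cells from dividing, while the cells can remain metabolically active for days and then die. Cells read a shortage of amino acids through the kinase GCN2 and the transcription factor ATF4, which switches on genes of amino acid synthesis, uptake and tRNA charging. Cells low in oxygen stabilise HIF-1, which drives glycolytic genes, and cytokine receptors that signal through STAT3 induce SOCS3, their own inhibitor. Genes of DNA replication and mitosis follow the share of cells in cycle, since most of them are transcribed by E2F factors before S phase or by the factors that act before mitosis.

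The cocultures were close to each other. Values are linear MAS5 signals, 1 per probe set, and where 1 of the 18193 genes has several, the one brightest on average stands for it. Signals under a floor of 44.3, the median of all signals, were set to 44.3. A gene's ratio whose dimmer side is at the floor is given as "at least". Ratios of further probe sets are given as computed. Some of them, such as 2.30 for Asns, -1.47 for Hif1a, -0.78 for Arg2 and 1.07 for Ddit3, had the dimmer signal under the floor. Their sizes are least values. The median log2 ratio of live over irradiated coculture was 0.00. A total of 123 genes (0.676%) differed at least 2-fold, 68 of them (0.374%) higher in the live coculture and 55 (0.302%) higher in the irradiated coculture. At 1.5-fold, 808 genes (4.44%) differed, 471 (2.59%) higher in the live and 337 (1.85%) in the irradiated coculture. Only 12 (0.066%) reached 3-fold, 8 (0.044%) towards the live and 4 (0.022%) towards the irradiated side. Against the control array, in contrast, 1025 genes (5.63%) differed 2-fold in the live and 1052 (5.78%) in the irradiated coculture. Ratios to the control were also noisier. The SD between probe sets of a gene was 0.47 for live and 0.43 for irradiated over control, against 0.26 for live over irradiated. How much of the contrast in counts comes from this noise was not tested. The split between directions depended on the scaling, because the ratio drifted with brightness: genes between 44.3 and 88.6 had a median ratio of 0.03, and genes above 2835 had one of -0.14. After centring each array on its median, 45 genes were higher in the live and 66 in the irradiated coculture at 2-fold, and 369 and 444 at 1.5-fold. Quantile normalization gave 52 and 59 at 2-fold and 392 and 406 at 1.5-fold, and a scaling that followed the signal gave 53 and 64, and 396 and 393. Neither direction was therefore more frequent on every scaling.

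**Figure D1:**
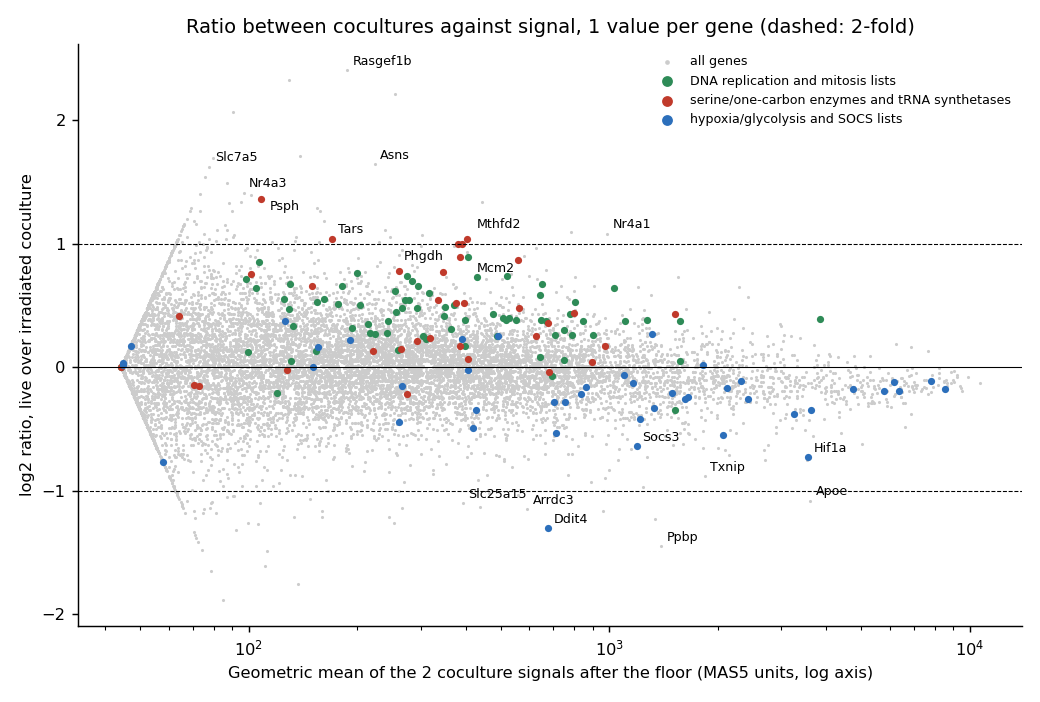
Each point is 1 gene, with the geometric mean of its coculture signals on a log axis and its log2 ratio of live over irradiated coculture on the vertical axis; dashed lines mark 2-fold and the slanted edges on the left are genes with 1 signal at the floor. Coloured genes of DNA replication, mitosis, serine synthesis and tRNA charging lie mostly above 0, those of hypoxia, glycolysis and the SOCS family mostly below 0, and the drift of bright genes to a median of -0.14 is visible on the right.

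Agreement between probe sets of a gene is the nearest thing to a measure of error on these arrays, although probe sets share the RNA and the hybridisation. Over 2730 genes with 2 probe sets, the spread within pairs corresponded to an SD of 0.26 for a log2 ratio. The SD of the ratio over genes was little larger, at 0.30. The correlation between the 2 probe sets of a gene was 0.33, lower than for any other pair of arrays compared (0.40 to 0.59). A single ratio of about 0.26 or less thus lies within 1 SD of the spread of probe sets, and ratios somewhat beyond it can also come from that spread. The SD was pooled over brightness. Past 2-fold were 2.06% of genes with a mean signal between 44.3 and 88.6, against 0.393% between 177.2 and 354.4. Of the 123 genes past 2-fold, 80 had no other probe set above the floor. In 18 at least 1 other probe set differed 1.5-fold the same way, and in 25 the others stayed under 1.5-fold. None of the 123 had another probe set 1.5-fold apart in the opposite direction. Across 5245 genes with at least 2 probe sets above the floor, 60 had every one of them at least 1.5-fold apart in the same direction, 40 towards the live and 20 towards the irradiated coculture. The most extreme genes by rank were seldom among the 60. Rasgef1b, a regulator of RAS signalling, led the live side with 165.1, 430.3, 81.6 and 123.4 (the order throughout is control, live, irradiated, conditioned medium), a log2 ratio of 2.40 from its only probe set above the floor. Rtel1, a DNA helicase, had 2.21, but -0.04 at another of its probe sets. Sec14l3, which led the irradiated side at -1.88 (at least 3.68-fold), had another probe set at -0.09. The results that follow therefore lean on gene groups and, where a gene has them, on further probe sets. Many genes named below had only 1 probe set above the floor and so lack this check. Among them are Ddit4, Nr4a1, Nr4a3, Apoe, Ppbp, Tars, Slc7a5 and Arrdc3.

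**Figure D2:**
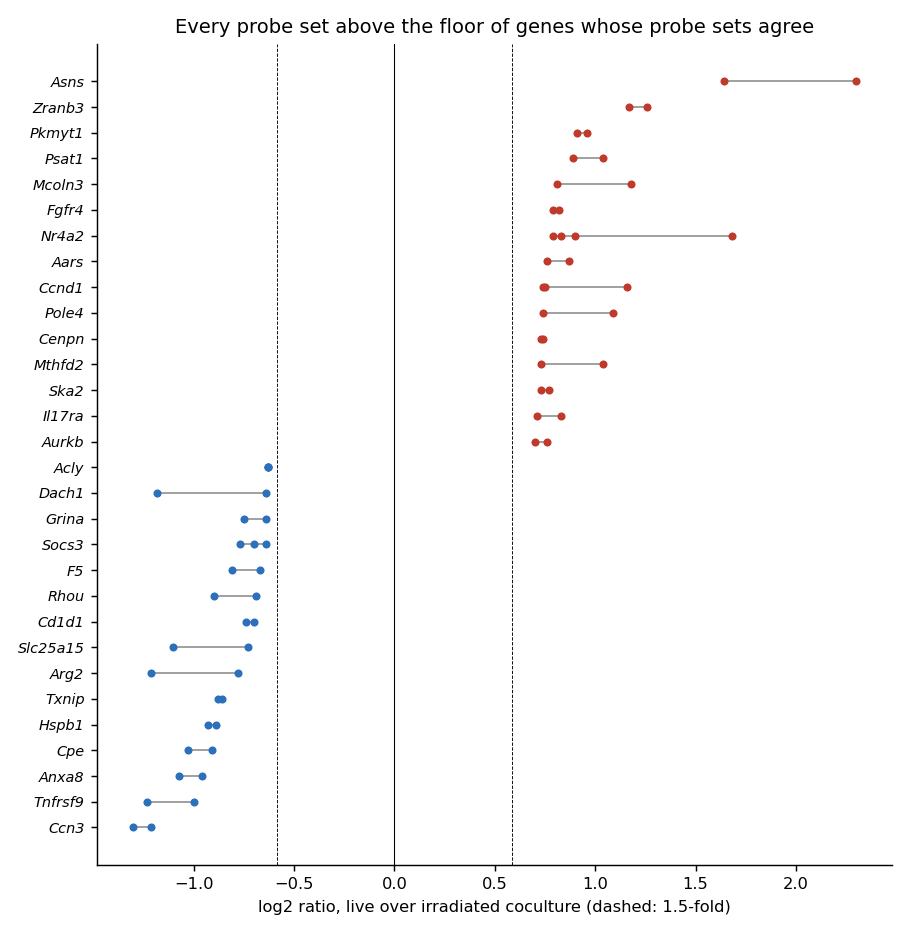
Every probe set above the floor is 1 point for the 15 genes on each side with the largest smallest ratio among the 60 whose probe sets all differ the same way; the horizontal axis is the log2 ratio of live over irradiated coculture and the dashed lines mark 1.5-fold. Asns lies farthest to the right, from 1.64 to 2.30, the latter with the irradiated signal at the floor, and Ccn3 keeps both of its probe sets beyond -1.20 on the left.

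Several genes of amino acid synthesis were higher in the live coculture at every probe set above the floor. Asns, which makes asparagine, had 150.6, 394.7, 126.5 and 196.2. The live coculture was the highest of the 4 arrays and the irradiated coculture the lowest, with a log2 ratio of 1.64 between them (3.12-fold). It was at least 2.30 at the other probe set, where the irradiated signal was under the floor. The 3 enzymes that make serine from a glycolytic intermediate stood the same way. Phgdh, the entry enzyme, had 406.4, 539.0, 268.7 and 374.7, a log2 ratio of 1.00 with 4 probe sets between 0.66 and 1.63. Psat1, the transaminase, had 205.9, 522.9, 282.4 and 419.5 (0.89 and 1.04). Psph, the phosphatase that completes serine, had 83.6, 173.6, 67.4 and 104.5 (1.36, from 1 probe set). Irradiated was under control for Asns, Phgdh and Psph and above it for Psat1.

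The mitochondrial folate enzymes that take 1-carbon units from serine were also higher in the live coculture. Shmt2 had 387.9, 551.5, 275.9 and 409.4 (log2 ratio 1.00; 4 probe sets from 0.35 to 1.12). Mthfd2 had 297.1, 578.5, 282.1 and 554.1 (1.04 and 0.73). Conditioned medium was near the live coculture at this probe set but near the control at the other, which had 401.7, 491.9, 296.9 and 391.6. The cytosolic Shmt1 had 59.8, 131.8, 78.5 and 106.3 (0.75). Of 15 measured genes of serine, glycine and 1-carbon metabolism, a list put together after ratios had been seen, 6 were past 1.5-fold towards the live coculture and none towards the irradiated one, where 2.59% and 1.85% of all genes were. The list's median was 0.15, and 0.41 where the mean over a gene's probe sets stood for it. Genes such as Gcsh, of the glycine cleavage system (0.04), and Ahcy, of the methionine cycle (0.07), differed little, and Mthfd1l, a folate enzyme of mitochondria, had -0.22.

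Aminoacyl-tRNA synthetases, which load each amino acid onto its tRNA, stood higher in the live coculture almost throughout. Of 19 cytosolic synthetases, also listed after ratios had been seen, 17 had a ratio above 0 (33.0% of all genes; 50.3% of those above the floor on either coculture array), 5 were past 1.5-fold towards the live side and none towards the other, and the median was 0.44. The threonine enzyme Tars had 218.7, 244.4, 118.9 and 172.8 (log2 ratio 1.04). The alanine enzyme Aars had 675.1, 758.1, 413.5 and 550.4 (0.87 and 0.76). Cars (0.78), Mars1 (0.77) and Yars (0.66), for cysteine, methionine and tyrosine, were the others past 1.5-fold. The group sat at the control's level in the live coculture, with a median log2 ratio to control of 0.01, and below it on the other treated arrays (-0.34 for irradiated, -0.27 for conditioned medium). The enzyme for glutamine, Qars, did not follow, with 689.2, 671.4, 690.5 and 838.5 (-0.04).

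Transporters and stress regulators of the same response were mixed. Slc7a5, the light chain of the transporter for large neutral amino acids, had 49.8, 136.5, 23.1 and 22.2, well above the floor in the live coculture and under it in the irradiated one (log2 ratio 1.62, at least 3.08-fold). Slc7a8, a related exchanger, had 288.7, 580.8, 354.4 and 351.3 (0.71). Slc3a2, the heavy chain that both need, had 2103.4, 2219.2, 2111.8 and 1346.1 (0.07). Of 19 transporters 10 had a ratio below 0 and 6 above, where 32.6% of all genes and 49.7% of those above the floor on either coculture array were below 0. The transcription factor Atf4 itself differed little, with 951.7, 1312.5, 1127.5 and 917.5 (0.22 and 0.52). Its targets Ddit3 (0.62 and 1.07) and Trib3 (0.59 and 0.15) were past 1.5-fold, and Chac1, another, was not (0.15). Chaperones of the endoplasmic reticulum, which belong to other branches of the unfolded protein response, were alike or slightly lower in the live coculture: Hspa5 had -0.21 and Calr -0.10. Xbp1, the factor of the IRE1 branch, had 2794.5, 4058.7, 6246.3 and 3569.8 (-0.62; 4 probe sets from -0.62 to -0.10). On the whole list of 27 unfolded protein and amino acid stress genes, 8 were past 1.5-fold towards the live coculture (2.59% of all genes), 6 of them enzymes or transporters of amino acids. Only Xbp1 was towards the irradiated one (1.85% of all genes).

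The start regions of these genes show what an amino acid response promoter looks like, and they are given to set sequence beside the values. ATF4 binds TGATGNAA, a joint C/EBP and ATF element. It occurred on either strand in the 250 bases before the start of 410 of 14452 measured genes with a RefSeq promoter (2.84%), in 4 of 25 unfolded protein and amino acid stress genes (Asns, Chac1, Herpud1 and Slc7a11), in 3 of 12 synthetases (Aars, Gars and Tars) and in 0 of 14 serine and 1-carbon genes. Those 250 bases follow for Asns, the gene with the largest agreed ratio, and for the synthetases with the largest ratios, from RefSeq on GRCm38.p6, 5′ to 3′ on the gene's strand with the element in capitals. They are chr6:7693210-7693459 (minus strand), chr15:11399659-11399908 (minus strand) and chr8:111033592-111033841 (plus strand). The Asns element begins 23 bases before the start. The element of Tars and that of Aars read on the opposite strand and lie 15 and 112 bases before it. A match is a match of letters and shows no binding.
Asns: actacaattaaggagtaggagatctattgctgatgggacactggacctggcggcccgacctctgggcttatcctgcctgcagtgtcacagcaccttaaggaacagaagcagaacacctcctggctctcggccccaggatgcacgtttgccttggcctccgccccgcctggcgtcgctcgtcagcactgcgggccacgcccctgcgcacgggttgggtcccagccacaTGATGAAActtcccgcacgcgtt
Tars: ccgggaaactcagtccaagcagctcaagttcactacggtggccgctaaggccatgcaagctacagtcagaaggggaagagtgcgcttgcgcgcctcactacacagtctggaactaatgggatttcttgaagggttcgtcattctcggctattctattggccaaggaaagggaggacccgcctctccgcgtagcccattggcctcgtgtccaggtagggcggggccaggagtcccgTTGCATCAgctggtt
Aars: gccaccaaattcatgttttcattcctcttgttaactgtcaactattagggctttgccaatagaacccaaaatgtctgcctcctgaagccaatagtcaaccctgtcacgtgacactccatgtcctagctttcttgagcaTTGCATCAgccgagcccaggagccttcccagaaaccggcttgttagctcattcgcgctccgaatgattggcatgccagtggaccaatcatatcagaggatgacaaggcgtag

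DNA replication genes were nearly all higher in the live coculture. Of 34 measured members, 32 had a ratio above 0 and 1 below, where 50.3% of genes above the floor on either coculture array were above 0, and the median was 0.53. A total of 13 were past 1.5-fold towards the live coculture (2.59% of all genes) and none towards the irradiated one (1.85%). Of the 23 with several probe sets above the floor, 21 had all of them on the same side of 0. Mcm2, a subunit of the replicative helicase, had 430.1, 551.7, 297.4 and 420.5 (log2 ratios 0.89 and 0.66), and Mcm5, of the same complex, had 660.3, 823.0, 516.0 and 978.4 (0.67 and 0.77). The catalytic subunits of polymerases epsilon and alpha, Pole (71.9, 142.8, 79.4 and 171.5) and Pola1 (155.5, 259.6, 153.1 and 296.4), had ratios of 0.85 and 0.76. Rrm2, the regulated subunit of the enzyme that makes deoxynucleotides, had 782.8, 1281.9, 824.2 and 1618.8 (3 probe sets from 0.64 to 0.81). Tk1, a thymidine kinase of S phase, had 180.1, 554.5, 333.4 and 694.0 (0.73). Pcna, the sliding clamp, was far brighter and differed less, with 3608.7, 4402.1, 3363.8 and 4687.6 (0.39). Cdc6, a licensing factor, was the only member below 0 (-0.21).

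Among the treated arrays the irradiated coculture was the lowest in this group and close to the control. Its signal was the lowest of the 3 treated arrays for 30 of the 34 genes, where this held for 30.9% of genes above the floor on either coculture array. The list's median ratio to the control, an array that all 3 ratios share, was 0.57 for live and 0.03 for irradiated tumour cells, and 0.74 for conditioned medium, the sample without tumour cells. Mitosis genes had the same order with a smaller gap: 37 of 39 had a ratio above 0, the median was 0.38, and the medians against the control were 0.66, 0.33 and 0.79. Only 3 of the 39 were past 1.5-fold, all towards the live coculture, where 2.59% of all genes were. Prc1, which bundles the spindle midzone, had 331.5, 670.9, 402.9 and 606.3 (0.74 and 0.68), and Aurkb, the kinase of the chromosomal passenger complex, had 257.5, 361.8, 222.4 and 498.6 (0.70 and 0.76). Ndc80, of the kinetochore, had 63.1, 130.4, 83.6 and 127.2 (0.64). Among genes outside both lists whose probe sets agreed were Ccnd1, cyclin D1, with 286.4, 775.0, 463.0 and 405.0 (0.74 to 1.16), and Pkmyt1, a kinase that holds back CDK1, with 132.2, 358.4, 190.9 and 396.4 (0.91 and 0.96).

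**Figure D3:**
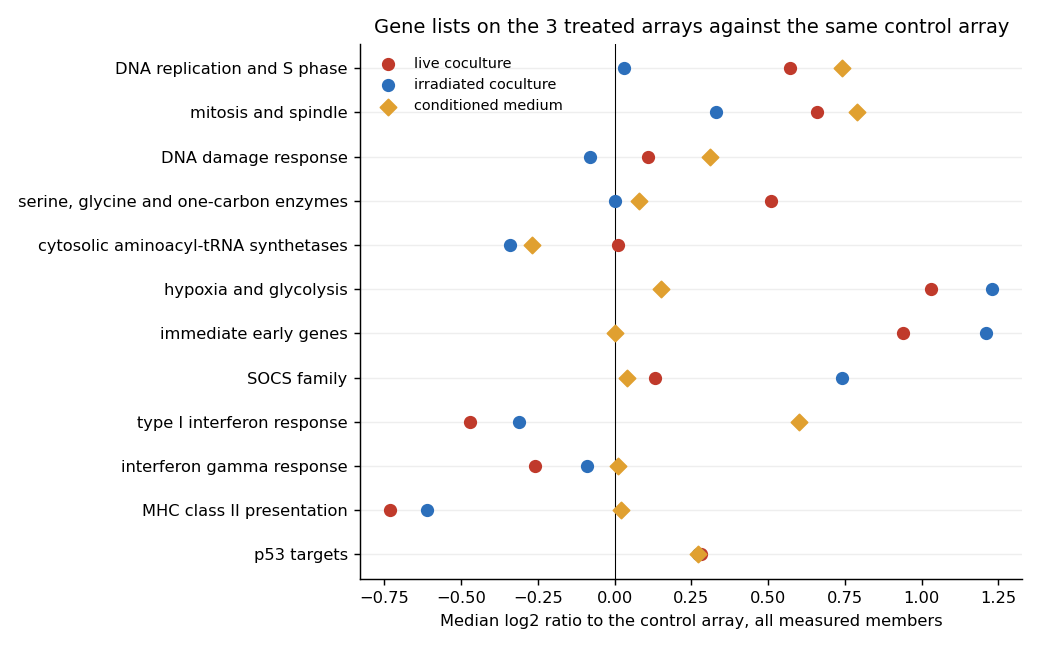
Points are the median log2 ratio to the control array over all measured members of a list, 1 point for each treated array, and all 3 share the same control. For DNA replication the irradiated coculture lies at 0.03 while the live coculture lies at 0.57 and the conditioned medium at 0.74; for type I interferon response genes the conditioned medium lies apart at 0.60.

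Genes of DNA repair and checkpoints went with replication. Of 28, 25 had a ratio above 0 (50.3% of genes above the floor) and the median was 0.34. In this list 6 were past 1.5-fold towards the live coculture (2.59% of all genes) and none towards the irradiated one (1.85%). Nbn, of the MRN complex that senses double-strand breaks, had 117.6, 94.4, 52.8 and 62.7 (0.84). Rad18, a ubiquitin ligase of lesion bypass, had 54.7, 163.8, 98.9 and 137.4 (3 probe sets from 0.52 to 0.73), and Rad54l, of homologous recombination, had 197.1, 265.7, 168.4 and 242.2 (0.66). Chek1, the S phase checkpoint kinase, had 72.2, 117.7, 77.9 and 118.5 (0.60 and 0.61). Outside the list, Zranb3, which remodels stalled forks, had 457.8, 244.3, 102.0 and 280.0 (1.26 and 1.17). At the second probe set, with 116.8, 110.8, 49.4 and 126.3, only the irradiated coculture was well below the control.

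Targets of p53, the transcription factor that DNA breaks activate, had a median ratio near 0. Of 34 members 15 had a ratio above 0 and 17 below, none was past 1.5-fold towards the live coculture (2.59% of all genes) and 3 were towards the irradiated one (1.85%), and the median was -0.01. Cdkn1a, the inhibitor that p53 uses to stop the cycle, had 1007.5, 2085.5, 2075.6 and 1329.9 (0.01). Mdm2, which degrades p53, had 1337.3, 1632.2, 1622.5 and 1211.1 (0.01), and Ccng1, cyclin G1, had 1365.1, 1141.0, 1122.3 and 1683.2 (0.02). The 3 past 1.5-fold were Ddit4, which is described with hypoxia, and Trp53inp1 and Ptpn14, which each had another probe set at -0.11. RNA of BMDC and of tumour cells cannot be told apart in these samples, and 1D8 cells alone were not analysed here.

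Promoters with an E2F element illustrate the replication group. The element, searched as TTTCGCGC or TTTGGCGC on both strands, occurred in 173 of 14452 promoters (1.20%), in 6 of 29 replication genes (Mcm5, Mcm6, Orc1, Pola1, Rfc3 and Uhrf1) and in 1 of 35 mitosis genes. Mcm5 and Pola1 had the largest ratios of the 6 and are shown, again from RefSeq on GRCm38.p6 with the element in capitals. Mcm5 lies at chr8:75109259-75109508 (plus strand) and holds 2 matches that overlap, on opposite strands. Pola1 lies at chrX:93632156-93632405 (minus strand) and holds 1, on the opposite strand, that begins 138 bases before the start.
Mcm5: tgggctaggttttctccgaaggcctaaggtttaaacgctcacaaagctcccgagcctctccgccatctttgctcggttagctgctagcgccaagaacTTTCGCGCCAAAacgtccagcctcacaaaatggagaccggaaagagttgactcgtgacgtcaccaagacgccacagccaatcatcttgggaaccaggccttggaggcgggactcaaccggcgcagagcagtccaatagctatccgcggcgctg
Pola1: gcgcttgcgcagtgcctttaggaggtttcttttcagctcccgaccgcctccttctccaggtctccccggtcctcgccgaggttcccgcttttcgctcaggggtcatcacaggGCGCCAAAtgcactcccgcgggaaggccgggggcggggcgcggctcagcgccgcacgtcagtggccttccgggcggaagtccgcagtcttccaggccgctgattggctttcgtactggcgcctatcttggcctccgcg

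Immediate early genes, which are transcribed within minutes of a stimulus without new protein, went both ways. The list of 35 had a median of -0.01, with 17 above 0 and 18 below, and 7 were past 1.5-fold, all towards the live coculture, where 2.59% of all genes were. Of these 7, 3 are the NR4A orphan nuclear receptors, all members of that family. Nr4a1 had 166.7, 1435.6, 678.0 and 204.5 (log2 ratio 1.08). Nr4a2 had 61.9, 378.5, 212.9 and 60.7 (4 probe sets from 0.79 to 1.68). Both were above the control in either coculture, more so in the live one, and near it in conditioned medium. Nr4a3 had 244.4, 157.6, 59.5 and 99.1 (1.41), and here the control was the highest array and the irradiated coculture the lowest. The zinc finger factors Egr2 (1019.1, 1508.5, 960.8 and 875.9; 0.65 and 0.60) and Egr3 (73.8, 353.8, 171.3 and 68.0; 1.05, with another probe set at -0.27) were higher in the live coculture, as were Maff (0.93) and Csrnp1 (0.65).

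Genes of the FOS and JUN families, which form AP-1, had ratios from -0.50 (Jund) to -0.13, none past 1.5-fold, although Fosl2 (-0.42) had 0.14 at its other probe set. Fos had 4340.0, 6379.3, 6974.8 and 5251.4 (-0.13), Fosb 259.8, 1544.2, 1826.4 and 267.1 (-0.24), and Jun 1218.1, 1663.4, 2085.2 and 1095.1 (-0.33 and -0.31). Dusp1, a phosphatase of MAP kinases, had 1164.5, 5885.6, 6309.2 and 1455.8 (-0.10), and the other phosphatases of the list lay on either side of 0, from -0.21 for Dusp6 to 0.31 for Dusp2. Egr1 had 1687.6, 5220.0, 5372.5 and 2750.5 (-0.04), unlike its relatives Egr2 and Egr3. CREB, which drives NR4A genes after cyclic AMP, binds TGACGTCA and TGCGTCA. These occurred in 747 of 14452 promoters (5.17%), in 6 of 27 immediate early genes and in 1 of 3 NR4A genes. That gene is Nr4a1, whose promoter at chr15:101266596-101266845 (plus strand) holds TGCGTCA 4 times and is shown for that repeat, from the same source with the element in capitals.
Nr4a1: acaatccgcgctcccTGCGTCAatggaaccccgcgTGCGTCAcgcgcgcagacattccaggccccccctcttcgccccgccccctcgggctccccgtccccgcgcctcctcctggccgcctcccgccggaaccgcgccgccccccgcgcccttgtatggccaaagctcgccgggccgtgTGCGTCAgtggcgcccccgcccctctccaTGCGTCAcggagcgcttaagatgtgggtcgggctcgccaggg

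**Figure D4:**
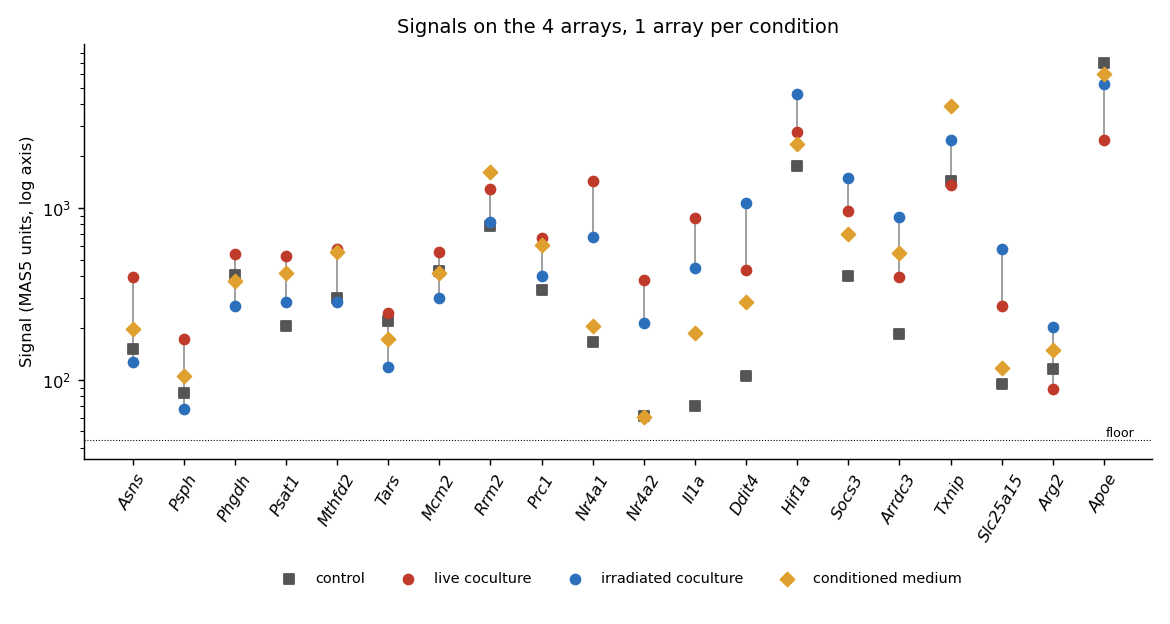
Signals of 20 genes are plotted on a log axis, 1 array per condition, with a grey line between the coculture arrays and the floor of 44.3 dotted. For Asns, Psph and Tars the irradiated coculture is the lowest point, whereas for Ddit4, Hif1a, Socs3, Arrdc3 and Slc25a15 it is the highest.

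Chemokines and cytokines did not separate as groups, since 15 of 31 chemokines had a ratio below 0 and 8 above. At 1.5-fold 4 were towards the live and 2 towards the irradiated coculture (2.59% and 1.85% of all genes). Ccl7, which acts on CCR2, had 133.0, 1994.7, 1198.9 and 197.9 (0.73), and Ccl12, a mouse chemokine of the same receptor, had 7.7, 145.7, 52.0 and 16.9 (1.49). Ccl2, their closest relative, was near the top of the scale and differed less (895.8, 7241.1, 6479.6 and 1007.3; 0.16). Ccl4 had 494.9, 991.6, 645.4 and 495.0 (0.62), and Cx3cl1, fractalkine, had 98.3, 135.5, 86.3 and 83.8 (0.65). On the other side, Ppbp, which gives rise to the neutrophil chemokine CXCL7, had 472.4, 843.7, 2303.8 and 1735.4 (-1.45), with the irradiated coculture the highest and conditioned medium next. Ccl8, another chemokine of monocytes, had 81.4, 66.8, 112.7 and 68.9 (-0.75). The neutrophil chemokines Cxcl3 and Cxcl1, with 191.6, 2933.6, 4173.6 and 1384.6 (-0.51) and 62.7, 1292.7, 1700.6 and 576.4 (-0.40), and Cxcl2 (-0.14) were not past 1.5-fold. Among cytokines only Il1a was past 1.5-fold, with 70.6, 870.1, 448.1 and 187.2 (0.96), while Il1b had 185.2, 1989.7, 2349.2 and 875.1 (-0.24) and Il6 had 35.0, 365.3, 369.1 and 115.8 (-0.01). Ch25h, which makes the oxysterol 25-hydroxycholesterol, had 79.2, 251.8, 76.9 and 77.3 (1.71), so only the live coculture stood out.

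On the irradiated side, genes of the HIF-1 programme were slightly higher as a group, and few were past 1.5-fold. Of 36 hypoxia and glycolysis genes 28 had a ratio below 0, against 32.6% of all genes and 49.7% of those above the floor. The irradiated coculture was the highest of the 3 treated arrays for 26, where this held for 29.6% of genes above the floor on either coculture array. The median was -0.18, where genes of the same brightness had -0.04. Only 2 were past 1.5-fold, both towards the irradiated coculture (1.85% of all genes). Ddit4, the REDD1 inhibitor of mTORC1, had 105.5, 432.2, 1062.6 and 281.4 (-1.30, 2.46-fold, from 1 probe set). Hif1a, the oxygen-regulated subunit itself, had 1748.4, 2767.9, 4578.9 and 2344.9 (-0.73; 4 probe sets from -1.47 to -0.61). Vegfa, the angiogenic factor, had 453.6, 1705.9, 2504.1 and 806.6 (-0.55 and -0.24). The target farthest above the control, the prolyl hydroxylase Egln3, had 39.8, 1054.7, 1412.3 and 162.8 (-0.42 and -0.67). The next, Hilpda, of lipid droplets, had 142.2, 2224.9, 2404.2 and 190.7 (-0.11). Bnip3, of mitophagy, had 244.7, 2862.7, 3719.3 and 737.5 (-0.38), and the lactate exporter Slc16a3 had 333.4, 1828.3, 1804.8 and 513.3 (0.02). After quantile normalization the list's median was -0.06, and -0.07 with the scaling that followed the signal, so the shift of the group as a whole depended on the scaling.

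The gene in the title of the series, Socs3, was higher in the irradiated coculture at each of its probe sets. Its signals were 399.9, 953.9, 1486.3 and 705.7, with log2 ratios of -0.64, -0.70 and -0.77. Of the 8 SOCS genes, 6 had a ratio below 0, where 49.7% of genes above the floor did, and the median was -0.36. In so short a list that count is not far from an even split. Probe sets of Socs4 (-0.15 to 0.64) and Socs6 (-0.22 to 0.38) lay on both sides of 0. Of the 6 genes with several probe sets above the floor, 4 had all of them on the same side. Socs1 had 26.8, 40.1, 75.8 and 27.2, above the floor in the irradiated coculture only (-0.77, at least 1.71-fold higher there), and Cish, the STAT5 target, had 300.2, 591.1, 853.0 and 335.5 (-0.53). Tyk2, the kinase named beside SOCS3 in the title, was alike (397.2, 457.8, 439.7 and 393.4; 0.06 and -0.07). Tlr3 was dim, with 80.6, 79.8, 117.8 and 91.9 (-0.56 and -0.30), under the 1.5-fold threshold. Of 22 interferon receptor and TLR3 pathway genes none was past 1.5-fold, where 4.44% of all genes were.

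Interferon response genes were lowest in the live coculture, by little. Of 41 type I interferon genes 31 had a ratio below 0 (49.7% of genes above the floor) and 9 above, and the median was -0.19. Their median log2 ratio to the control was -0.47 for live, -0.31 for irradiated and 0.60 for conditioned medium. The 3 past 1.5-fold were all higher in the irradiated coculture, where 1.85% of all genes were. Zbp1, a sensor of Z-form nucleic acids, had 123.4, 68.6, 164.9 and 169.8 (-1.27), Ifi27l2a had 1054.7, 383.8, 632.8 and 1367.1 (-0.72) and Isg20, an exonuclease, had 54.0, 50.3, 80.5 and 93.4 (-0.68). Each came from 1 probe set. The 14 MHC class II presentation genes had 13 ratios below 0, none past 1.5-fold, and a median of -0.16 where genes of the same brightness had -0.04. H2-Eb1, a beta chain of MHC class II, had 4244.1, 1347.5, 1652.9 and 3527.6 (-0.29), and Cd274, the ligand PD-L1, had 1089.7, 916.6, 1368.0 and 926.0 (-0.58). The 19 lysosomal genes had 17 ratios below 0, but their median of -0.14 was that of genes of the same brightness, and it was 0.02 with the scaling that followed the signal.

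**Figure D5:**
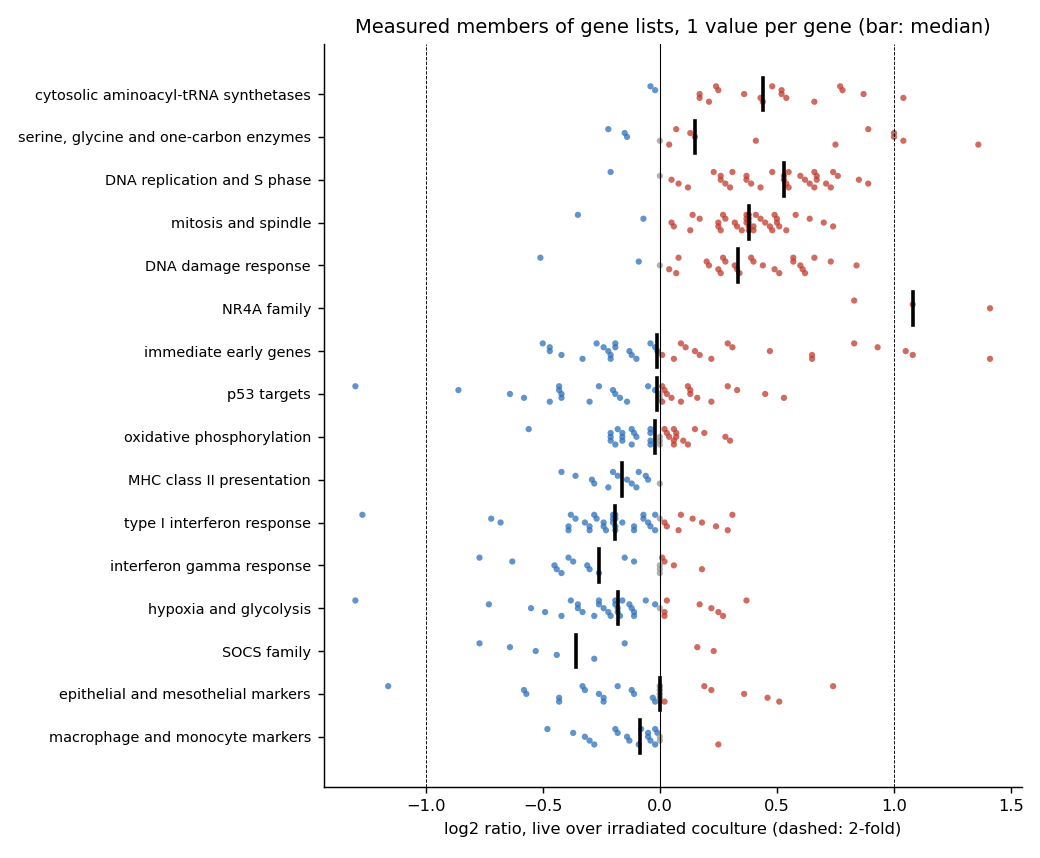
Each point is the log2 ratio of live over irradiated coculture for 1 measured gene of a list, red above 0, blue below 0 and grey at 0, and the black bar is the list's median; dashed lines mark 2-fold. The tRNA synthetase, replication, mitosis and DNA damage lists lie almost wholly to the right, with medians of 0.44, 0.53, 0.38 and 0.34, and the SOCS list lies mostly to the left at -0.36.

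Several metabolic genes stood higher in the irradiated coculture at more than 1 probe set. Arg2, the mitochondrial arginase, had 115.8, 87.9, 203.4 and 149.2 (log2 ratios -1.21 and -0.78), with the live coculture the lowest array. Slc25a15, which carries ornithine into mitochondria, had 94.6, 268.3, 574.2 and 116.8 (-1.10 and -0.73). Arg1, the cytosolic arginase, did not share the pattern (427.2, 8116.8, 8842.7 and 5847.3; -0.12), and Aldh18a1, which starts proline and ornithine synthesis from glutamate, went the other way (150.4, 309.9, 200.0 and 196.5; 5 probe sets from 0.38 to 0.64). Txnip, an alpha-arrestin that restrains glucose uptake, had 1427.2, 1352.7, 2497.6 and 3896.9 (-0.88 and -0.86). Arrdc3, of the same family, had 183.5, 397.7, 883.9 and 549.6 (-1.15, from 1 probe set only). Live and control were alike for Txnip, while for Arrdc3 the live coculture lay between control and conditioned medium. Of the 6 alpha-arrestins 4 had a ratio below 0 and the others were at the floor.

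Lipid genes differed one by one. Apoe, the apolipoprotein that carries cholesterol out of macrophages, had 6975.1, 2487.8, 5250.7 and 6040.7 (-1.08), so the live coculture alone was far below the control. Apoc2, from the same cluster, had 1293.8, 1596.9, 2510.6 and 1593.7 (-0.65), and the cholesterol exporter Abca1 had 1754.5, 3087.1, 4816.1 and 2161.3 (3 probe sets from -0.64 to -0.41). Acly, which makes cytosolic acetyl-CoA, had 1248.9, 2216.7, 3426.9 and 1379.5 (-0.63 at each of 3 probe sets). Lpl, the lipoprotein lipase, went the other way with 7951.7, 2867.1, 1827.1 and 6674.0 (0.65 and 0.94), as did Dhcr7, the last enzyme of cholesterol synthesis (274.1, 234.6, 147.7 and 226.0; 0.67). Other genes with agreeing probe sets on the irradiated side were Tnfrsf9, the costimulatory receptor 4-1BB (377.5, 685.7, 1371.0 and 224.4; 2-fold here and -1.23 at the other probe set), the small heat shock protein Hspb1 (80.5, 195.5, 372.5 and 108.7; -0.93 and -0.89) and Ccn3, a matricellular protein (102.7, 104.9, 243.3 and 66.9; -1.21 and -1.30).

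Markers of tumour and other cells are given beside these results, and their part in them was not tested. Krt19, a keratin, had 8.6, 569.7, 767.4 and 22.2 (-0.43), Krt8 had 66.1, 386.8, 458.0 and 64.1 (-0.24), Krt18 had 9.9, 269.0, 304.8 and 58.3 (-0.18) and Cdh1, E-cadherin, had 189.5, 930.5, 1102.2 and 338.0 (-0.24). Both cocultures were thus above the control in these epithelial genes, and the irradiated one somewhat more. Over 31 epithelial and mesothelial markers the signals summed to 2760.9 in the control, 4923.6 with live and 5848.0 with irradiated tumour cells, and 2777.6 in conditioned medium. Much of the control sum was Spint1, with 1553.6, 892.6, 1204.8 and 1189.7, which was highest without tumour cells. The sums are therefore not a measure of tumour RNA alone. In this list 1 marker was past 1.5-fold towards each coculture: Epcam, an adhesion molecule, in the irradiated (103.8, 107.2, 239.0 and 168.5; -1.16) and Elf3 in the live (80.3, 145.9, 87.2 and 95.0; 0.74). The 38 mesenchymal markers summed to 28667 and 32670 in the live and irradiated coculture, and to 19540 in the control and 23602 in conditioned medium. Much of that sum was thus present without tumour cells. A bright probe set of Fn1 alone had 3834.4, 7111.6, 8273.7 and 7098.5. The macrophage and monocyte markers also summed higher in the irradiated coculture (72823 and 80804 for live and irradiated). Across all genes 18, Krt19 among them, were at or under the floor in control and conditioned medium and at least 177.2 as the geometric mean of the cocultures, a rule set after values had been seen. Their median ratio was -0.07, with 6 above 0 and 12 below, and the 3 past 1.5-fold were all higher in the irradiated coculture: Ackr3, an atypical chemokine receptor (12.6, 325.4, 657.8 and 10.3; -1.02), Cpe, a carboxypeptidase (1.6, 315.1, 593.2 and 17.2; -0.91 and -1.03) and Tm4sf1 (3.2, 788.6, 1211.8 and 22.2; -0.62, with another probe set at 0.28).

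Dendritic cell markers differed little between the cocultures. Itgax, CD11c, had 2534.0, 1921.0, 1387.7 and 2394.2 (0.47), and Cd80, which set the sort gate, had 85.5, 378.2, 325.8 and 201.3 (0.22; 3 probe sets from 0.15 to 0.56). None of 19 dendritic cell markers and none of 20 macrophage and monocyte markers was past 1.5-fold. Only 4.44% of all genes were, so empty counts in lists this short are near the background. Of the macrophage markers 17 had a ratio below 0, with a median of -0.09 where genes of the same brightness had -0.14. The T cell gene Cd3e had 11.1, 14.0, 58.0 and 16.3, above the floor in the irradiated coculture only. Its ratio, with the live signal set to the floor, was -0.39 from 1 probe set and so under 1.5-fold. Of 16 lymphocyte markers, Cd3e among them, 6 were above the floor on either coculture array. Of these 2 had a ratio above 0 and 4 below, with a median of -0.03, and none was past 1.5-fold. The neutrophil markers summed to 4293.8 in the live and 5105.3 in the irradiated coculture, under the 9352.5 of the control and 8728.8 of conditioned medium. Most of each sum was Mmp8, with 5677.4, 2635.4, 3101.6 and 6901.5. The list's median log2 ratio to the control was -0.97 for live, -0.63 for irradiated and -0.26 for conditioned medium. Mmp9 (44.0, 280.4, 288.5 and 35.7) and Prtn3 (183.2, 213.5, 294.6 and 243.1) were instead higher in both cocultures than in the control. Between the cocultures Lcn2, a neutrophil granule protein, was the 1 of 16 past 1.5-fold (105.6, 52.4, 115.7 and 126.5; -1.14). In such mixed samples fewer cells of a type and less RNA per cell cannot be told apart, which holds for the replication genes as well.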

How the data were processed

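The deposited values are linear signals, an intensity for each probe set, and the submitters' processing notes name GCOS 1.4 and MAS5 for this step by the authors. The scaling target is not given in the sources used here, and the mean after trimming 2% at each end was 150.0 on every array, so no further scaling was applied. Of 45101 probe sets, 64 controls and 10092 without a single gene were left out. The Actb 3'/5' ratio was 1.14 in the live and 1.12 in the irradiated coculture. Ratios, floor and lists were computed in Python 3.11.15 (pandas 2.3.3, numpy 2.4.6). Calls past 2-fold were tried on simulated data, with known changes set only in genes well above the floor. Changes in genes near the floor and the lists were not tried in this way. Precision is limited by the number of arrays.

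Members and lists were chosen with earlier results of these data known. Of the lists 38 were set with the design, and 6 (serine and 1-carbon enzymes, tRNA synthetases, amino acid transporters, arginine and polyamines, alpha-arrestins, NR4A) were added after ratios had been seen. Named genes are the 15 highest and lowest past 2-fold, up to 4 per list past 1.5-fold, up to 15 per direction with agreeing probe sets, and fixed markers. Genes outside this rule were named after their values were seen, to show members that did not follow. Promoters came from RefSeq, GRCm38.p6. The alternatives were floors at the 25th and 75th percentile (12.9 and 155.6), quantile normalization, median centring, the mean over probe sets, a 3-fold threshold and, added after seeing the data, lowess scaling.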

Additional observations from a re-analysis of the deposited data

How the results depend on the processing

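No paired analysis was possible because each condition is 1 array. Counts of genes moved with the floor, which by construction decides how many dim ratios remain, and with the threshold. At the 25th percentile 566 genes were 2-fold higher in the live and 465 in the irradiated coculture (1479 and 1173 at 1.5-fold), and at the 75th percentile 12 and 13 (115 and 92). At 3-fold 8 and 4 remained, a stricter threshold by construction, and median centring gave 45 on the live side at 2-fold. With the higher floor the median ratio was 0.35 for DNA replication, 0.21 for DNA damage response, 0.83 for NR4A, -0.21 for SOCS, -0.08 for type I interferon, 0.00 for interferon gamma response and 0.00 for chemokine receptors. With the lower floor it was -0.11 for chemokines, -0.17 for metalloproteinases, -0.11 for epithelial, -0.10 for neutrophil and -0.30 for mast cell markers. Quantile normalization gave -0.06 for hypoxia and glycolysis and -0.01 for lysosomal genes. Lowess scaling, chosen after seeing the data, gave -0.07 for hypoxia and glycolysis, 0.00 for MHC class I and 0.03 for alternative macrophage activation, and turned the lysosomal median from -0.14 to 0.02. The mean over probe sets gave 0.41 for serine and 1-carbon enzymes. The cause of these moves was not tested beyond the floor and the threshold. Among the 121 named genes a change of sign was counted only for those past 1.5-fold, and none of these reversed. This was largely fixed in advance. Most were named for large ratios on these arrays, and a changed floor cannot turn the sign of a probe set's ratio. All 121 moved by less than 0.26 under quantile normalization, centring and lowess scaling, and 8, 56 and 18 moved by more with the lower floor, the higher floor and the mean over probe sets.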

Other observations

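Groups not described above were close to each other on the coculture arrays. Since 4.44% of all genes were past 1.5-fold, few or no members of such lists would be at the background share. Of 34 oxidative phosphorylation genes 17 had a ratio above 0 and 17 below, none was past 1.5-fold and the median was -0.02. Antioxidant genes had a median of -0.05 with none of 21 past 1.5-fold, although Gsr, glutathione reductase, had 557.9, 1305.8, 1881.2 and 832.7 (control, live coculture, irradiated coculture, conditioned medium; log2 ratio -0.53). Of 24 genes of apoptotic cell uptake only Gas6, the bridging ligand of TAM receptors, was past 1.5-fold, with 603.8, 187.5, 119.8 and 294.9 (0.65). The TAM receptor gene Mertk had 931.6, 688.6, 850.2 and 774.7 (-0.30) and the complement gene C1qa had 4601.4, 3864.5, 4411.6 and 4527.1 (-0.19). Of 23 apoptosis regulators none was past 1.5-fold and the median was 0.00.

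Among secreted factors, Igf1 was the only 1 of 18 growth factors past 1.5-fold, with 600.9, 193.4, 123.8 and 319.3 (0.64; 4 probe sets from 0.17 to 1.05). Serpinb2, the plasminogen activator inhibitor of macrophages, had 86.6, 211.1, 124.5 and 475.4 (0.76) and was highest in conditioned medium. Saa3, an acute phase protein of macrophages named after its values were seen, had 1667.4, 877.1, 2052.0 and 1483.3 (-1.23), and the live coculture was the lowest array. Dgat1, which completes triglycerides and was named in the same way, had 369.0, 644.9, 1437.0 and 387.0 (-1.16, with another probe set at -0.28). Of 10092 probe sets assigned to no gene or to several, 26 were at least 2-fold higher in the live and 16 in the irradiated coculture. Of all genes 0.374% and 0.302% were, so such probe sets were no more often 2-fold apart than genes.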
